A study of Mus musculus with 3 samples.

Results

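Positions listed as peaks for the transcription factor Atoh7 were examined around 5 genes of retinal ganglion cell identity: Pou4f1, Pou4f2, Pou4f3, Isl1 and Isl2. The 5 genes are 5 of 21631 protein-coding genes on chromosomes 1 to 19 and X. Around them, every peak with a midpoint within 400 kb of the RefSeq gene body was taken, which gave 13 of the 3668 peaks of the deposited list. The material was retina of C57Bl6/J mice at embryonic day 14, with no genotype or treatment given beyond the strain. CUT&RUN, in which an antibody tethers a nuclease that cuts out the DNA beside the bound protein, was done with Atoh7 antibody in 2 libraries and with IgG in 1. The peak list is a single table of positions and widths on mm10. It holds no value per library, so library depth is unknown, no replicate error can be given, and the comparisons below are descriptions without a test. It also holds no measure of RNA, so the tissue could not be checked against its markers.

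Retinal ganglion cells are the output neurons of the retina, and their axons form the optic nerve. Atoh7 is a basic helix-loop-helix protein that makes progenitors competent to become ganglion cells, and such proteins contact E-boxes, short motifs of the form CANNTG. Pou4f1, Pou4f2 and Pou4f3 (Brn3a, Brn3b and Brn3c) are POU-domain homeodomain factors. Pou4f2 appears early in new ganglion cells and is needed for their differentiation and survival, Pou4f1 and Pou4f3 mark subsets of ganglion cells, and Pou4f3 is also needed by hair cells of the inner ear. Isl1 is a LIM homeodomain factor that works alongside Pou4f2 in ganglion cells, and Isl2 is its relative, found in a subset of them.

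The promoter sequences of 4 of the 5 genes are given first, because the presence or absence of a peak at the gene itself separated Pou4f1 from the other genes. Each is a RefSeq window on GRCm38.p6 (the assembly of mm10) of 300 bases, from 250 before to 50 after the annotated start, read 5′ to 3′ on the strand of the gene. Capitals mark every CANNTG hexamer. The windows are chr14:104467950-104468249 (minus strand) for Pou4f1, chr13:116309639-116309938 (minus) for Isl1, chr8:78436598-78436897 (minus) for Pou4f2 and chr9:55540899-55541198 (plus) for Isl2. The window of Etfa, an electron transfer flavoprotein gene, at chr9:55512194-55512493 (minus), is added because the nearest peak to Isl2 overlaps it.
Pou4f1: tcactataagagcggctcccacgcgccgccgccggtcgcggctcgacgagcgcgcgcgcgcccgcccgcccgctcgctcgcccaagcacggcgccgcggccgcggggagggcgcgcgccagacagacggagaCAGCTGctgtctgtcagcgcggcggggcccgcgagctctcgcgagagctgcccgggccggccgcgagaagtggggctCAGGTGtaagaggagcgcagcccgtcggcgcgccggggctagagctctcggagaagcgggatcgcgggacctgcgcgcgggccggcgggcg
Isl1: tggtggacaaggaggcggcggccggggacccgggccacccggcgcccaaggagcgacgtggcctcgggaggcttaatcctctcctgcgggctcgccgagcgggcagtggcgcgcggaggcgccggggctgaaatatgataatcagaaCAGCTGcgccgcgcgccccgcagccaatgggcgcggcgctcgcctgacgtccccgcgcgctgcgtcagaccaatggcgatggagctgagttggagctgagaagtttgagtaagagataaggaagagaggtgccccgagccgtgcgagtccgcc
Pou4f2: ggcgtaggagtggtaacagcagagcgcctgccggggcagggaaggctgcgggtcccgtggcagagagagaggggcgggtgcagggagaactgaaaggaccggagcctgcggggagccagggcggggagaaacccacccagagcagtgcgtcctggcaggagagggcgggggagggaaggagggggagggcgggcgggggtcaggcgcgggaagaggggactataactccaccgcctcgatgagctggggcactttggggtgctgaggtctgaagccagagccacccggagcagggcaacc
Isl2: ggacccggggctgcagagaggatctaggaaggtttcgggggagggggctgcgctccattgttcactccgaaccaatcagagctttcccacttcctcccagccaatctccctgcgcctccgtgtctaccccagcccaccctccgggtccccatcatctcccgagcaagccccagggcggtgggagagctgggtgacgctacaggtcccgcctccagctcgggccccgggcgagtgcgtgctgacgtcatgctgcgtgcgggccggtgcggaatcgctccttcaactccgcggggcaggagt
Etfa: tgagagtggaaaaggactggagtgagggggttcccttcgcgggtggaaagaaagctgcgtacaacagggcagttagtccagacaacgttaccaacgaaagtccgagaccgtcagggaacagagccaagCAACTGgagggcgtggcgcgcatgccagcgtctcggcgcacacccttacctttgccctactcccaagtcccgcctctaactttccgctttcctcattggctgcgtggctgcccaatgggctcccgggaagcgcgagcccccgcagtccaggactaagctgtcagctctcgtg

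Bases 1 to 211 of the Pou4f1 window lay inside a peak, and so did bases 150 to 300 of the Etfa window. The windows of Isl1, Pou4f2 and Isl2 had no base in a peak. Of 32609 promoter windows on chromosomes 1 to 19 and X, 898 (2.75%) overlapped a peak, beside 1 of the 4 windows of the ganglion cell factors. The Pou4f1 window held 2 E-boxes. Its CAGCTG, at bases 133 to 138 (chr14:104468112-104468117), lay wholly inside the peak, 125.5 bp from the peak centre and 118 bp before the annotated start. Its CAGGTG, at bases 210 to 215, had 2 of its 6 bases inside the peak. Isl1 carried the same CAGCTG hexamer, at bases 148 to 153 and 103 bp before its start, in a window without a peak. The windows of Pou4f2 and Isl2 held no CANNTG at all. The Isl2 window lay inside the annotated gene body, which begins at 55538677, so sequence at that end of the gene was not searched. The CAACTG of Etfa, at bases 129 to 134, lay outside the peak.

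CAGCTG was present both with a peak, at Pou4f1, and without one, at Isl1. A search on both strands found CAGCTG in 16.4% of all windows, CAGATG in 17.1% and any CANNTG in 72.3%. CAGATG was absent from the windows of Pou4f1, Pou4f2, Isl1 and Isl2. CAGCTG and CAGATG are forms of CANNTG, so the searches overlap. Among windows overlapping a peak, 28.0% held CAGCTG (251 of 898), against 16.1% of the other 31711. A hexamer was counted anywhere in the window, whether inside or outside the peak. The 32609 windows come from 26787 genes, so several windows can belong to 1 gene or overlap 1 peak, and they are not independent. For CANNTG the shares were 67.1% of windows overlapping a peak and 72.5% of the others, the reverse order. For CAGATG they were 15.7% and 17.1%, also the reverse order. Base composition moved with these shares, since the median G+C content was 63.0% in windows overlapping a peak and 52.7% in the others, and its part in them was not tested. The Pou4f1 window had 78.3% G+C, and those of Pou4f2, Isl1 and Isl2 had 69.7, 69.0 and 67.3%.

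Pou4f1 was the 1 gene of the 5 with a peak at its own end, meaning a midpoint within 1 kb of either end of the annotated gene. The share among all protein-coding genes was 4.3% (931 of 21631), against which 1 of 5 is too few to set apart (95% Wilson interval 3.62 to 62.4%, which covers counting of genes only). Pou4f1 (gene ID 18996, chromosome 14, 104461675 to 104468118) is read from the minus strand, so its high-coordinate end is its start. The peak at 104468039 to 104468441 was 403 bp wide and overlapped the first 80 bp of the gene body. Its centre lay 122 bp outside the body and 241 bp upstream of the annotated start at 104467999. Measured from that start, the peak ran from 40 to 442 bp upstream, over the proximal promoter.

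A second peak near Pou4f1, 491 bp wide at 104356612 to 104357102, was centred 104.8 kb beyond the 3′ end of the gene. It lay inside the long noncoding RNA gene D130079A08Rik, which, with Gm35362, was 1 of 2 annotated genes between the peak and Pou4f1. No protein-coding gene stood between them, and Pou4f1 was the nearest protein-coding gene to both peaks. Upstream of the own-end peak, Obi1, a ubiquitin ligase gene of replication origins, was the other protein-coding gene in the window of 400 kb on each side, and the rest of that flank held no peak.

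**Figure D1:**
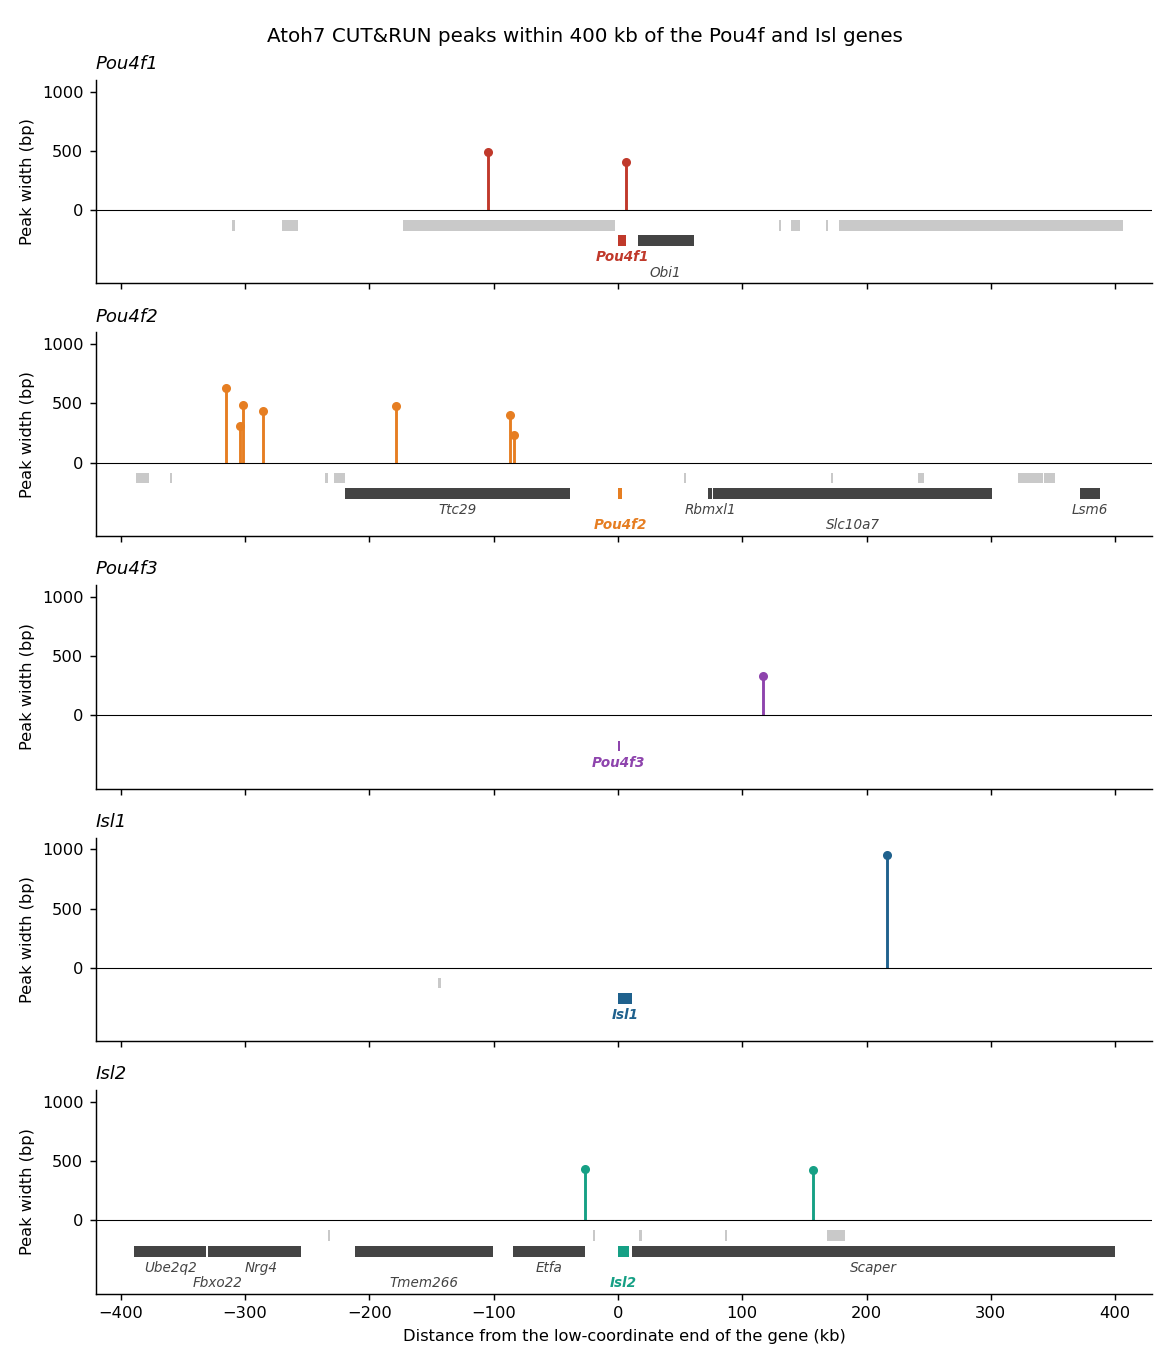
Map of the 5 loci, with distance from the low-coordinate end of each gene in kb on the x axis and peak width in bp as the height of each stem. Bars below are genes (the named gene in colour, other protein-coding genes dark, other annotated genes pale, all clipped at the window; neighbours of Pou4f3 are not drawn); Pou4f1 has a peak at its end, and the 7 peaks of Pou4f2 all lie on the Ttc29 side.

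Pou4f2 had the most peaks of the 5 genes in its window and none at its ends. Its 7 peaks all lay on the low-coordinate side, which is downstream of the gene, since Pou4f2 (gene ID 18997, chromosome 8, 78433009 to 78436647) is read from the minus strand. The other side, which holds the Pou4f2 start and the genes Rbmxl1, Slc10a7 and Lsm6, had 0 peaks within 400 kb. Of all protein-coding genes, 96.3% had fewer than 7 peaks in the same window and 3.75% had at least 7. Windows of neighbouring genes overlap, so these genes are not independent of each other. Pou4f2 was also chosen with earlier results of these data known, so its rank is a description only. By distance Pou4f2 stood less far out, with its nearest peak at 84.0 kb and 31.9% of genes closer to a peak.

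The 7 peaks fell into 3 groups when neighbours with midpoints at most 50 kb apart were joined. A limit of 20 kb also gave 3 groups, but a limit of 100 kb gave 2, so the number depends on the limit. All 7 had Ttc29, a tetratricopeptide repeat gene, as their nearest protein-coding gene. The near group was a pair inside Ttc29, at 78346217 to 78346621 (405 bp) and 78348908 to 78349137 (230 bp). Their centres were 2.60 kb apart and 86.6 and 84.0 kb from Pou4f2. A single peak followed at 78254386 to 78254860 (475 bp), also inside Ttc29, 178.4 kb from Pou4f2 and 41.3 kb from the low-coordinate end of Ttc29.

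The far group held 4 peaks spread over 30.2 kb in intergenic sequence beyond Ttc29, which is read from the plus strand and so begins on that side. These were at 78116973 to 78117598 (626 bp), 78129082 to 78129392 (311 bp), 78130907 to 78131394 (488 bp) and 78147322 to 78147758 (437 bp). They were 285.5 to 315.7 kb from Pou4f2 and 65.7 to 96.0 kb from the body of Ttc29. The steps between their centres, from low to high coordinate, were 11.95, 1.91 and 16.4 kb. Joining the whole list with the limit of 50 kb gave 2883 groups, of which 81.7% were single peaks and 43 (1.49%) held 4 or more peaks. These shares count groups, and the share of peaks lying in groups of 4 or more is larger. Ttc29 was the 1 protein-coding gene between Pou4f2 and each of its 7 peaks, in whole for the far group and in part for the others. Between Pou4f2 and the far group, Gm45574 and Gm39202 were annotated as well.

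**Figure D2:**
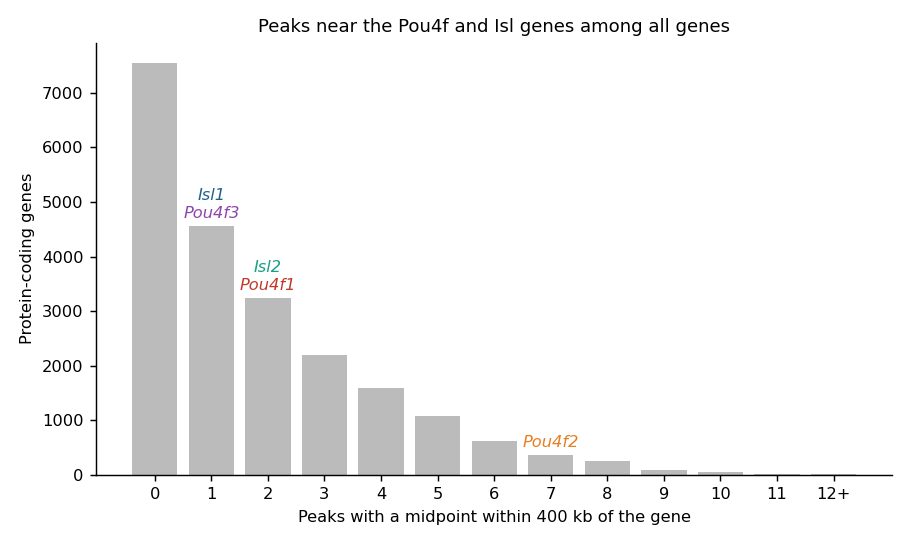
Number of protein-coding genes (y axis) by the number of peaks with a midpoint within 400 kb (x axis, 12 or more joined), with the 5 genes written above their bars. Pou4f2 stands at 7 peaks, Pou4f1 and Isl2 at 2, and Pou4f3 and Isl1 at 1.

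Pou4f3 (gene ID 18998, chromosome 18, 42394597 to 42396093) had a single peak in its window of 400 kb on each side. The peak was 334 bp wide and centred 115.1 kb from Pou4f3, on the high-coordinate side. No protein-coding gene stood between the peak and Pou4f3, but 4 other annotated genes did (Gm31438, Gm16415, Gm31501 and Gm3631). The window held 8 other protein-coding genes, and 37.4% of all protein-coding genes were closer to a peak than Pou4f3 was.

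The window of 400 kb on each side of Isl1 held no other protein-coding gene and 1 peak. Isl1 (gene ID 16392, chromosome 13, 116298270 to 116309688) is read from the minus strand, and the peak at 116514637 to 116515590 was centred 205.4 kb upstream of its start. No annotated gene of any kind lay between the peak and Isl1, which was the nearest protein-coding gene to it. At 954 bp this was the widest of the 13 peaks, and 99.1% of the 3662 peaks on these chromosomes were narrower. Peak width is not a measure of occupancy. Isl1 was near the middle of all genes by distance, with 49.7% of protein-coding genes closer to a peak. On the low-coordinate side, beyond the 3′ end of the gene, the first peak was centred 442.4 kb away, past the limit of 400 kb.

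Isl2 had 2 peaks, both at or in other genes. Isl2 (gene ID 104360, chromosome 9, 55538677 to 55547667) is read from the plus strand. Its nearest peak, at 55511915 to 55512344 (430 bp), was centred 26.5 kb upstream of the gene body and 29.0 kb upstream of the annotated start at 55541149. That centre was 113.5 bp inside Etfa, by the start of that gene, and the pseudogene Gm5917 was the other annotated gene between the peak and Isl2. By distance Isl2 came second among the 5 genes, and 17.9% of protein-coding genes were closer to a peak. The second peak, at 55695296 to 55695722 (427 bp), was centred 147.8 kb downstream of Isl2 inside Scaper, which encodes a cyclin A-associated protein, and 145.6 kb from the nearer end of Scaper.

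**Figure D3:**
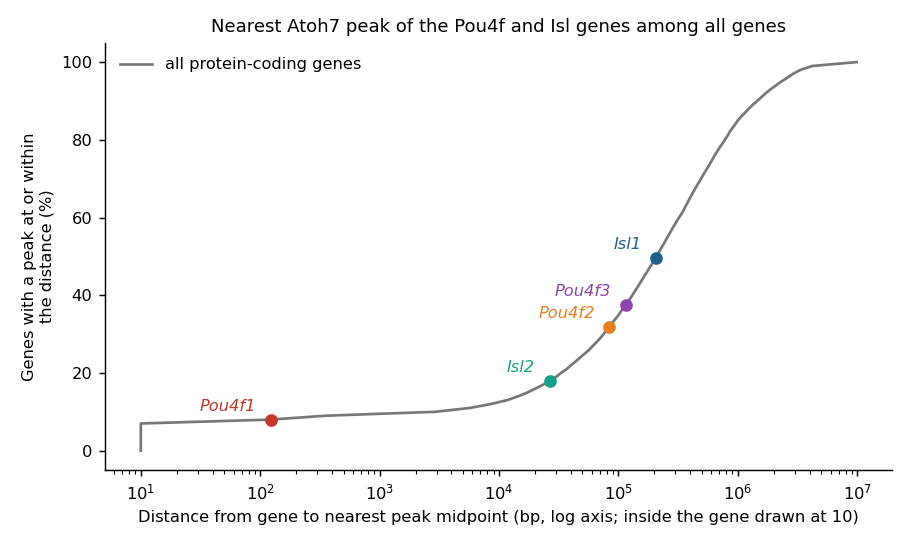
Percentage of protein-coding genes with a peak midpoint at or within each distance of the gene body (grey line; x axis in bp, log scale, with distances inside a gene drawn at 10), with the 5 genes as points. Pou4f1 lies at 122 bp, Isl2 at 26.5 kb, Pou4f2 at 84.0 kb, Pou4f3 at 115.1 kb and Isl1 at 205.4 kb.

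From nearest to farthest peak, the order was Pou4f1, Isl2, Pou4f2, Pou4f3 and Isl1. The median distance was 84.0 kb for the 5 genes, against 208.5 kb for all protein-coding genes (quartiles 52.4 and 614.2 kb). All 5 genes had a peak within 400 kb, where the background was 65.1% of protein-coding genes. Within 100 kb, 3 of 5 did, with a background of 34.9%. With 5 genes and no replicate error, neither count sets the family apart. None of the 5 gene bodies contained a peak midpoint, and 7.17% of all protein-coding genes did. These 5 bodies are short, from 1497 bp for Pou4f3 to 11419 bp for Isl1, and shares were not adjusted for gene length.

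The 13 peaks differed from gene to gene in setting. By the first fitting class, 3 were at an end of an annotated gene (23.1%, against 26.5% of the 3662 peaks). A further 5 were elsewhere in a gene body (38.5%, against 46.2%) and 5 were intergenic (38.5%, against 27.3%). Of the 3 at gene ends, 1 was at a ganglion cell factor, Pou4f1, and another was at Etfa. Of the 5 intergenic peaks, 4 made up the far group of Pou4f2 and 1 was that of Isl1. The median width was 430 bp for the 13 peaks and 381 bp for the list (quartiles 269 and 486 bp). At or above that list median were 10 of the 13, and 50.1% of the list. Those below it were 2 peaks of Pou4f2 and the peak of Pou4f3. The farthest peak inside the limit of 400 kb was that of Pou4f2 at 315.7 kb. Between 400 and 500 kb lay 5 more peaks, of which 2 were by Isl1 (442.4 and 445.3 kb) and 3 by Isl2 (448.4, 455.2 and 471 kb).

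**Figure D4:**
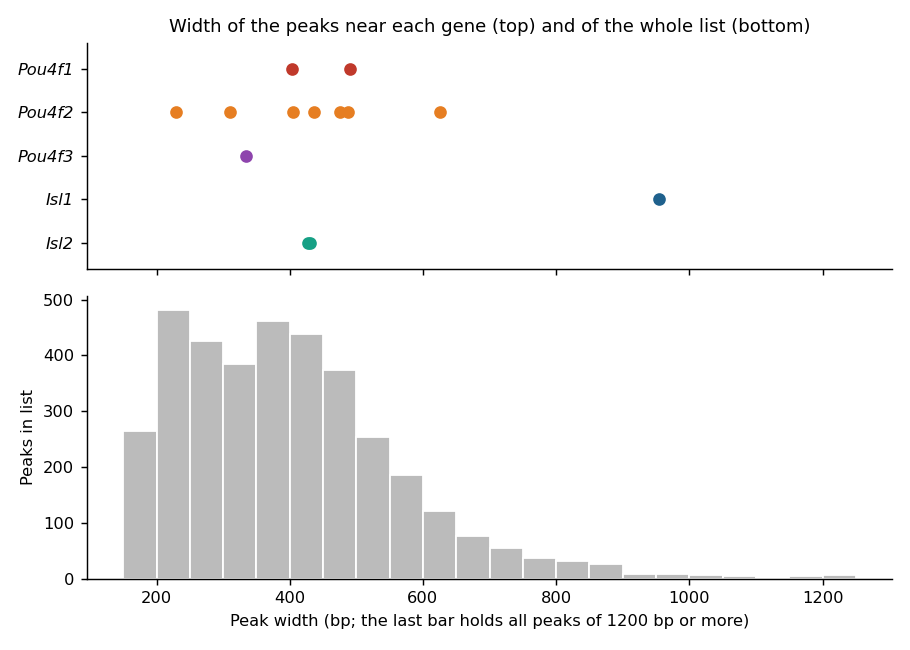
Width in bp of the 13 peaks by gene (top, 1 point per peak; the 2 Isl2 peaks nearly coincide) above the widths of all 3662 peaks on chromosomes 1 to 19 and X (bottom, number of peaks per bin of 50 bp). The peak of Isl1, at 954 bp, lies in the upper tail, and the 7 of Pou4f2 range from 230 to 626 bp.

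The names of the peaks carry running numbers that rise along each chromosome up to 7185, of which 3668 (51.1%) are in the list. If each number was given to 1 call in that order, an absent number is a call between its neighbours that was left out, by a step not given in the sources used here. Around Isl2 the flanking peaks were numbers 6811 and 6812, with 183.0 kb between them, so no number is absent across Isl2. The 2 peaks of Pou4f1 were likewise consecutive, numbers 2134 and 2135. Isl1 lay in an interval of 658.5 kb without a listed peak, between numbers 1881 and 1883, and 1 number is absent there. Pou4f3 lay in an interval of 2.25 Mb with 1 absent number. Pou4f2 lay at the edge of an interval of 2.99 Mb, from number 6428 in Ttc29 to number 6434, 2905 kb above the gene, in which 5 numbers are absent. Where in these intervals the absent numbers fell is not known. Within the 7 peaks by Pou4f2, which span 8 numbers, 1 is absent.

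The lengths of these intervals were compared gene by gene, so an interval holding several genes counts once for each of them. The shares are therefore shares of genes and do not give how common such intervals are. Among 19490 protein-coding genes with a listed peak on each side and none inside, the median interval was 1348 kb, and 74.0% of these genes lay in a shorter interval than Pou4f2. For Pou4f3 the share was 67.5%, for Isl1 30.5%, for Isl2 6.56% and for Pou4f1 3.06%. The interval of Pou4f2 held 19 other protein-coding genes, that of Pou4f3 held 7, and that of Isl1 held 0.

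Other genes of the ganglion cell programme and of both protein families gave a frame for these values. Of 44 other ganglion cell genes, 6 had an own-end peak (13.6%, beside 4.3% of all protein-coding genes). This list was chosen with earlier results of these data known and includes Atoh7 itself, so the share is a description only. These were Myt1, a neuronal zinc finger gene, Barhl2 and Onecut2, homeobox genes, Klf7, a zinc finger gene tied to axon growth, and the bHLH genes Atoh7 and Neurod1. A peak midpoint lay inside 0 of the 5 Pou4f and Isl genes, 16 of the 44 (36.4%) and 7.17% of all protein-coding genes. With that background 0 of 5 sets nothing apart, and gene lengths were not equalised. The median distance of this list was 66.8 kb. The farthest from a peak were Slc17a6, the vesicular glutamate transporter of ganglion cells, at 1652 kb, and Zfhx3, a homeobox gene, at 1517 kb.

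Among 11 other POU genes, Pou3f2, a factor of neural progenitors and neurons, was the 1 with an own-end peak (9.09%, beside 4.3% of all protein-coding genes). That peak, at 22488282 to 22488741 on chromosome 4 (460 bp), was centred 145.5 bp outside the gene, much as the peak of Pou4f1 was at 122 bp. The median distance of the other POU genes was 187.1 kb, and Pou3f4 (1701 kb) and Pou3f3 (398.3 kb) were farthest from a peak. Of 19 LIM homeodomain genes and LIM partners, Ssbp2, whose product binds the LIM cofactor Ldb1, was the 1 with an own-end peak (5.26%, beside the same 4.3%). A count of 1 sets neither list apart from all genes. The median distance of the LIM list was 70.6 kb, and Lmo3 (1296 kb) and Lhx8 (486.1 kb) were farthest.

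**Figure D5:**
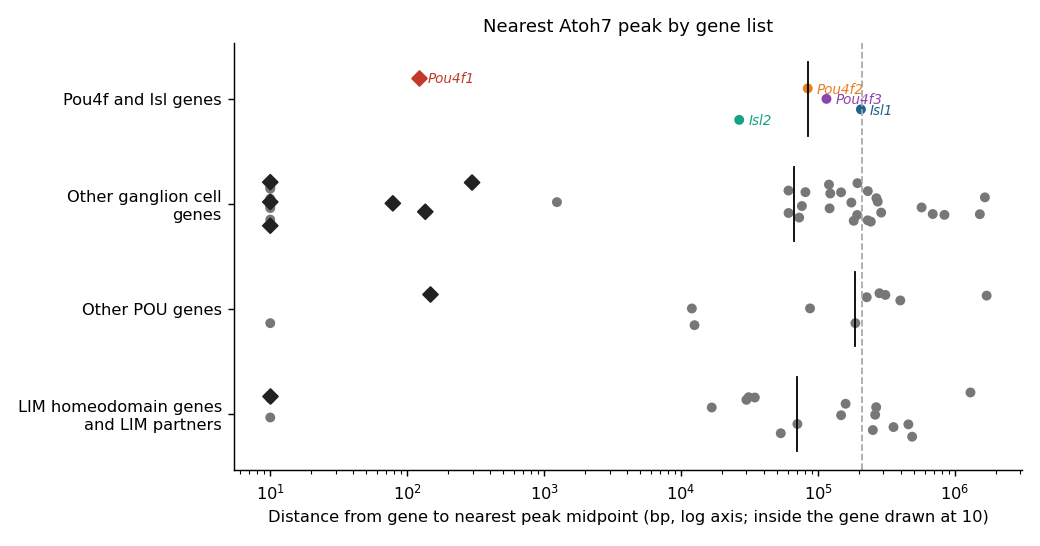
Distance from each gene to its nearest peak midpoint (x axis in bp, log scale, with distances inside a gene drawn at 10) for the 5 genes and 3 comparison lists; vertical offsets within a list carry no value. Diamonds are genes with an own-end peak, short vertical lines are list medians and the dashed line is the median of all protein-coding genes (208.5 kb).

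Likeness between genes was taken as the difference in log10 of the distance to the nearest peak, over the 30 genes of the POU and LIM lists. Pou3f2 was the most like Pou4f1, by 0.08, and the next, Pou2f1, was 11.98 kb from a peak and differed by 1.99. Pou2f2 (87.4 kb) and Ldb1 (70.6 kb) were the most like Pou4f2. Lhx5 (147.2 kb) and Pou2f2 were the most like Pou4f3. Pou5f1 (187.1 kb) and Pou2f3 (226.5 kb) were the most like Isl1. Lmo2 (29.97 kb) and Lhx3 (31.1 kb) were the most like Isl2. Each likeness rests on a single distance per gene in a single list.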

How the data were processed

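CUT&RUN libraries of mouse retina at embryonic day 14 (2 with Atoh7 antibody, 1 with IgG) were grouped by their titles. The deposited list gives the start, end and width of each peak in bp on mm10, counted from 1, per the file headers, with no score, p-value or pileup. The submitters' processing notes name bedtools, MACS2 2.2.7.1, Picard 2.0.1, SAMtools and Bowtie2 2.3.5, in no stated order. All peak names begin with Atoh7_R1, and how replicate 2 and IgG entered the list is not stated. Library depth is unknown.

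Genes came from RefSeq on GRCm38.p6, which gave all 5 genes and all 74 genes of the comparison lists. Strands and promoters came from a RefSeq promoter table that held 4 of the 5. Peaks outside the autosomes and X were left out. The others were placed by midpoint, with a distance of 0 inside a gene body. Own-end meant within 1 kb of either gene end. A gene counted as lying between when any part of it did. A gene beside the Pou4f3 peak is not reported here. No test was run. The genes and lists were chosen with earlier results of these data known. Names follow a rule: the 5 genes, genes near or between them and their peaks, and, per list, genes with an own-end peak and the 2 farthest from a peak. The calculation of distances was checked on made-up positions with known answers. Calculations ran in Python 3.11.15 with pandas 2.3.3, numpy 2.4.6 and scipy 1.17.1, and figures were drawn with matplotlib 3.10.9.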

Additional observations from a re-analysis of the deposited data

How the results depend on the processing

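Of 67 alternative values for 33 results, 52 stayed within 1.5 times the reported value and 15 did not. A window of 200 kb left 3 peaks for Pou4f2 and 0 for Isl1. A window of 100 kb left 2 for Pou4f2, 1 each for Pou4f1 and Isl2, and 0 each for Pou4f3 and Isl1. With the wider 50% of peaks, Pou4f3 had 0 peaks within 400 kb and its nearest lay 6475 kb away, while the nearest peaks of Pou4f1, Isl1 and Isl2 were the same distances away as before. Measured to the peak edge, the nearest peak of Pou4f1 was at 0 kb, and from the annotated start, a setting chosen after the data were seen, at 0.241 kb. Counting all annotated genes put 4 between Pou4f3 and its nearest peak and 2 between Isl2 and its own. Any CANNTG gave 2 E-boxes at Pou4f1. With 5 kb as the limit, 6.72% of protein-coding genes had an own-end peak, and the 5 counts of own-end peaks did not change. No paired analysis was possible because the list holds no value per library. For the same reason no library could be left out, and depth sets no interval here.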
